A study of Mus musculus with 36 samples.

Results

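Inflammasome and pyroptosis genes were described as a cell-death route beside necroptosis in visceral fat and liver of mice that lack Mlkl in adipocytes. The 10 genes are Nlrp3, Aim2, Pycard, Casp1, Casp4, Gsdmd, Ninj1, Il1b, Il18 and Il1rn, chosen by name as 10 of the 56748 genes of the deposited expression table. RNA-seq libraries were made from visceral white adipose tissue (visWAT, epididymal fat) and liver of the same 18 male mice, 36 libraries in all, with 1 library per mouse and tissue. All mice carried loxP-flanked Mlkl alleles on a C57BL/6J background. Mlkl Adi-KO mice (KO) also carried an Adipo-Cre transgene that is active in mature adipocytes, so other cells of the fat and all liver cells keep Mlkl, and their WT littermates had no Cre. The mice were 16 weeks old when they were given a normal chow diet (NCD, 4 mice per genotype) or a high-fat diet (HFD, 5 mice per genotype) for 16 weeks. Each library came from 1 mouse, and the tests set differences between groups against the spread between mice within them.

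Inflammasomes are protein complexes of the innate immune system, best known from macrophages and other myeloid cells. A sensor such as NLRP3, which responds to membrane and ion disturbance, or AIM2, which binds DNA in the cytosol, recruits the adaptor ASC (encoded by Pycard), and this activates caspase-1. Caspase-1 matures the cytokines IL-1β and IL-18 and cleaves gasdermin D, whose fragment forms pores in the cell membrane. Caspase-11, encoded in mice by Casp4, cleaves gasdermin D in response to cytosolic lipopolysaccharide, and NINJ1 carries out the final rupture of the membrane. IL1RN is the receptor antagonist that blocks IL-1 signaling. Necroptosis is another lytic route, in which RIPK3 phosphorylates MLKL. Messenger RNA levels measure none of the cleavage and assembly steps by which these proteins are switched on.

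Levels are given in FPKM, the reads of a gene scaled to its length and to the size of the library, as deposited. The libraries held 20875463 to 30322171 reads on genes. Tissue identity was checked with marker lists. The summed level of 7 adipocyte markers was 4534 to 20300.2 FPKM in visWAT and 8.32 to 163 FPKM in liver. The summed level of 7 hepatocyte markers was 44858 to 69212 FPKM in liver and 24.2 to 1977 FPKM in visWAT. In NCD fat most of this sum was Cyp2e1, with means of 1158 FPKM in WT and 1134 FPKM in KO.

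Mlkl itself was checked first. In visWAT, it stood at 5.11, 4.63, 2.29 and 3.91 FPKM in the WT NCD mice 165, 180, 182 and 183 and at 2.20, 1.96, 2.49 and 2.10 FPKM in the KO NCD mice 166, 179, 197 and 199. On HFD it was 4.58, 5.19, 4.88, 5.50 and 6.28 FPKM in the WT mice 154, 155, 161, 162 and 164 and 2.39, 2.68, 2.72, 2.55 and 2.32 FPKM in the KO mice 151, 152, 153, 156 and 157. The library labelled WT NCD 182 thus had Mlkl at the level of the KO mice. In liver the level ran from 1.62 to 4.19 FPKM over all mice.

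A few other libraries stood apart. The visWAT library of WT NCD mouse 183 held seminal vesicle and epididymis markers at a summed 247986 FPKM, against 327 FPKM in mouse 182, 82.2 FPKM in KO NCD mouse 197 and at most 4.54 FPKM in the other 15. The visWAT library of KO HFD mouse 156 held Alb, Apoa1 and Ttr at 460, 131 and 98.2 FPKM. The group medians of these hepatocyte markers were 1.34, 0.224 and 0.0234 FPKM. In liver, the macrophage markers summed to 127 FPKM in WT NCD mouse 182 and to 119 FPKM in KO HFD mouse 152, against 32.1 to 66.0 FPKM in the other 16. Values below are given in the mouse order above. The counts of called genes in comparisons that use WT NCD mice were also made without the libraries labelled 182 and 183, and are given where these mice change them or where they lead a paragraph.

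On HFD, visWAT of WT mice had higher levels of the inflammasome machinery. Of the 10 genes, 8 had a mean of at least 0.5 FPKM over the mice compared and could be tested, and 7 of them rose (limma, adjusted p under 0.05). Among all 14161 genes tested in this comparison, 21.9% rose and 37.8% were called in either direction. The median log2 fold change of the 8 genes was 1.19, against -0.0061 for all genes. Without the mice labelled 182 and 183, 7 of 8 rose as well. Il1rn passed the filter only through its HFD values, so these counts describe the genes and test nothing. Counting the low genes too, all WT HFD mice lay above all WT NCD mice for 9 of the 10 genes, and 19.6% of all tested genes had this pattern.

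**Figure D1:**
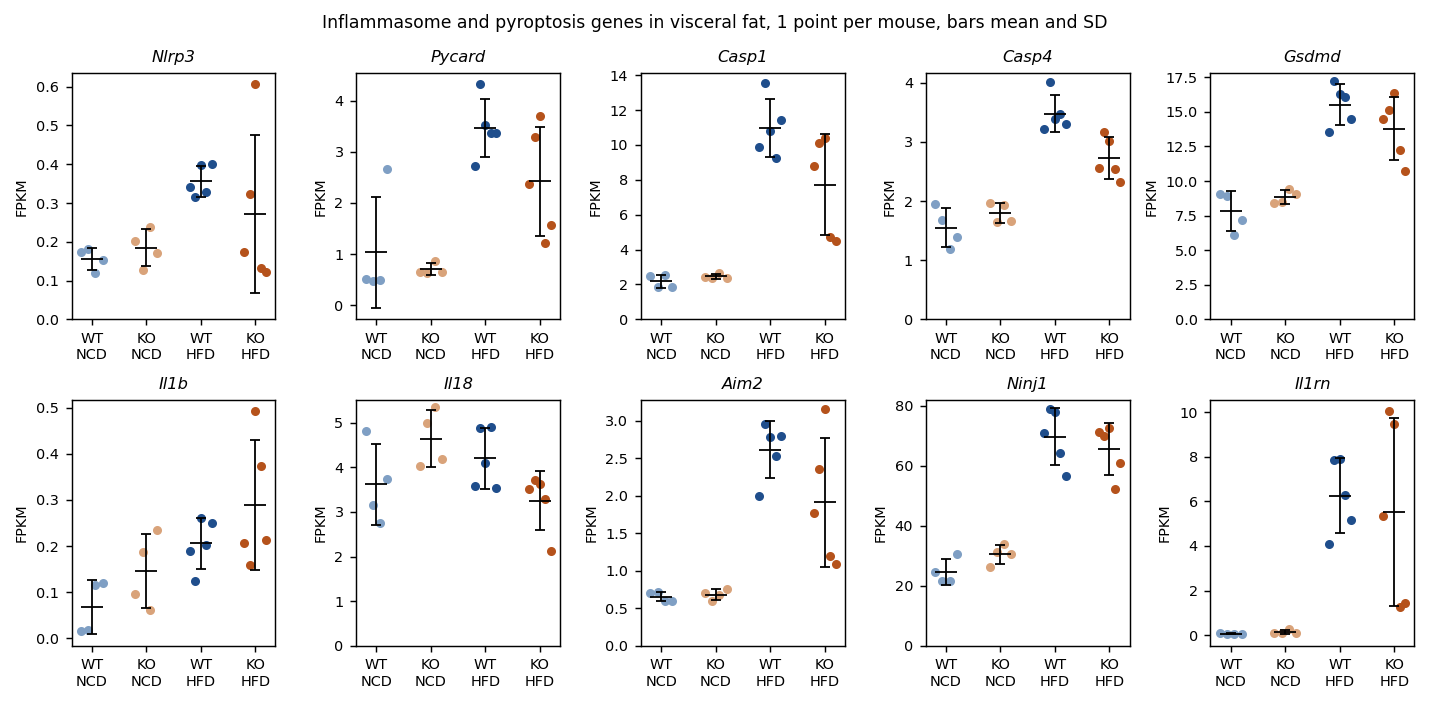
Level of each gene in visWAT in FPKM (linear axis, its own scale per panel) for the 4 groups of genotype and diet. Points are single mice, horizontal bars the mean and whiskers the SD (n = 4 on NCD and 5 on HFD). For 9 of the 10 genes the WT HFD points all lie above the WT NCD points, and in the KO HFD group mice 156 and 157 are the lowest for all but Il1b.

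Both sensor genes were low in WT fat. Aim2 stood at 0.699, 0.716, 0.601 and 0.597 FPKM in WT mice on NCD and at 1.996, 2.96, 2.78, 2.54 and 2.80 FPKM on HFD. It rose 4.01-fold in the means, with a log2 fold change of 1.12 ± 0.09 (SE) and an adjusted p of 1.1e-05. Nlrp3 stood at 0.173, 0.182, 0.118 and 0.153 FPKM on NCD and at 0.341, 0.315, 0.397, 0.327 and 0.401 FPKM on HFD, from 13 to 25 reads and from 38 to 65 reads per library. It was below the filter of the test across genes, and the groups did not overlap (2.27-fold, exact permutation test, two-sided p = 0.00794, the smallest that 4 against 5 mice can give). Aim2 overlaps Cadm3, Pycard overlaps Gm45205 and Il1b overlaps Il1bos, each on the opposite strand, and whether the counting used strand is not given in the sources used here.

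The adaptor gene Pycard stood at 0.510, 0.465, 0.486 and 2.67 FPKM in WT mice on NCD and at 2.72, 4.32, 3.53, 3.36 and 3.38 FPKM on HFD. The high NCD value is that of mouse 183, the library with seminal vesicle markers, and it reached nearly to the lowest HFD mouse. The log2 fold change was 1.25 ± 0.27 (adjusted p = 0.00511), and it was 1.58 without mouse 183 (adjusted p = 1.03e-05).

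The inflammatory caspases rose together. Casp1 stood at 2.49, 1.88, 2.52 and 1.84 FPKM on NCD and at 9.89, 13.5, 10.8, 9.27 and 11.4 FPKM on HFD, 10.97 ± 1.64 (SD, n = 5) against 2.18 ± 0.374 (n = 4). This was 5.03-fold in the means and a log2 fold change of 1.91 ± 0.12 (adjusted p = 2.5e-06). Casp4 stood at 1.95, 1.67, 1.18 and 1.40 FPKM on NCD and at 3.216, 4.02, 3.39, 3.47 and 3.29 FPKM on HFD, a log2 fold change of 0.82 ± 0.09 (adjusted p = 0.00014). Both groups were separate for both genes. Casp1 and Casp4 are neighbours on chromosome 9 (GRCm39, chr9:5298508-5307290 and chr9:5308828-5336783, both on the plus strand) and related in sequence, and the treatment of reads that fit both is not given.

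Stretches of 300 bases around a start site of each caspase gene and of Il1rn are shown. These genes rose in visWAT, as did Aim2, Ninj1, Pycard and Gsdmd, and all the stretches shown hold a motif match. Each runs from 250 bases before to 50 bases after the start, 5′ to 3′ on the gene's strand, and was taken from RefSeq on GRCm38.p6, whose coordinates differ from those of the expression table. Capitals mark letters that match a motif on either strand.
Casp1, chr9:5298267-5298566, plus strand: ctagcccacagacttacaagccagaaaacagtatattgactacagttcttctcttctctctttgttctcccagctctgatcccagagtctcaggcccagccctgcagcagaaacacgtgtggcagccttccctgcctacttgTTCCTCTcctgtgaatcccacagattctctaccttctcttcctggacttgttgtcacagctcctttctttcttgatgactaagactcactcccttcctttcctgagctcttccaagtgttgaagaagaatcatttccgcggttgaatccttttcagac
Casp4, chr9:5308599-5308898, plus strand: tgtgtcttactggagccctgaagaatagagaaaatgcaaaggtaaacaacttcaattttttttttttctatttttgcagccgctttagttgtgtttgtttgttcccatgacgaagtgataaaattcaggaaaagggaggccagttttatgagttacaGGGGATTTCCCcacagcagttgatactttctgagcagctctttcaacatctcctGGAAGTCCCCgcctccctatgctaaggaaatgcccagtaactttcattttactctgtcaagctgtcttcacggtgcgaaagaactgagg
Il1rn, chr2:24336610-24336909, plus strand: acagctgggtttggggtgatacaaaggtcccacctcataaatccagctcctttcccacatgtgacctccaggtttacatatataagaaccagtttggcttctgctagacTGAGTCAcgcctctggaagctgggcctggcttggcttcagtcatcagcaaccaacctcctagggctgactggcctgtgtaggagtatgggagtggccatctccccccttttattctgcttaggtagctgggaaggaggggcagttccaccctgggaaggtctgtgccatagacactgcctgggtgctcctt
The capitals in Casp4 match the NF-kappaB consensus, in 2 sites, the first of which holds 2 overlapping matches. Those in Casp1 match the PU.1 core AGAGGAA on the opposite strand, and those in Il1rn the AP-1 core TGANTCA. Promoters were found for 9 of the 10 genes, 13 stretches in all, and Gsdmd was not among them. No match was found in the other stretches of Il1rn, or in those of Aim2 and Ninj1, which also rose. The NF-kappaB consensus was in a promoter of 2 of the 9 genes (Nlrp3, Casp4) and in 8.46% of all 32851 promoters. The PU.1 core was in 2 of the 9 (Nlrp3, Casp1) and in 10.4% of all promoters, the AP-1 core in 1 (Il1rn) and 7.81%, and the C/EBP core TTGCNNAA in 1 (Pycard) and 10.8%. The interferon-stimulated response element was in none of the 9 and in 3.44% of all promoters. Several of these genes have more than 1 stretch, so the counts by gene and the shares by promoter are not the same quantity.

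The executioners of membrane lysis were the most abundant of the 10 in fat. Gsdmd stood at 9.08, 8.92, 6.12 and 7.20 FPKM in WT mice on NCD and at 13.6, 17.2, 16.3, 16.1 and 14.5 FPKM on HFD, a log2 fold change of 0.91 ± 0.12 (adjusted p = 0.00029). Ninj1 stood at 24.5, 21.6, 21.5 and 30.5 FPKM on NCD and at 70.7, 78.9, 77.8, 64.2 and 56.4 FPKM on HFD, 2.84-fold in the means and 1.47 ± 0.14 on the log2 scale (adjusted p = 3.4e-05). For both genes every HFD mouse lay above every NCD mouse.

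Il18, a cytokine gene that was not called between the diets and which many cell types express at rest, stood at 4.83, 3.15, 2.76 and 3.74 FPKM in WT mice on NCD and at 3.58, 4.89, 4.09, 4.91 and 3.53 FPKM on HFD, and the groups overlapped (log2 fold change 0.18 ± 0.14, adjusted p = 0.33). Il1b, which myeloid cells transcribe on stimulation, was near the limit of detection in fat. It stood at 0.0147, 0.0169, 0.116 and 0.120 FPKM on NCD, from 1 to 7 reads per library, and at 0.190, 0.123, 0.260, 0.203 and 0.251 FPKM on HFD, from 7 to 20 reads. The groups did not overlap (exact permutation test, p = 0.0159), but the highest NCD mouse lay just under the lowest HFD mouse.

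The antagonist gene Il1rn had the largest difference. It stood at 0.0813, 0.0290, 0.0600 and 0.0472 FPKM on NCD, from 5 to 16 reads per library, and at 4.07, 7.84, 7.91, 6.27 and 5.18 FPKM on HFD, from 683 to 1766 reads. The ratio of the means was 115. On the log2(FPKM + 1) scale, which understates the change of a gene that starts so low, the fold change was 2.75 ± 0.16 (adjusted p = 2.0e-06), and edgeR on the recovered reads gave 6.77 (adjusted p = 7.5e-07). Il1rn passed the filter only through its HFD values, so these p-values are descriptions. In WT HFD fat the Il1rn level was 6.25 ± 1.67 FPKM and that of Il1b 0.206 ± 0.0549 FPKM (SD, n = 5).

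**Figure D2:**
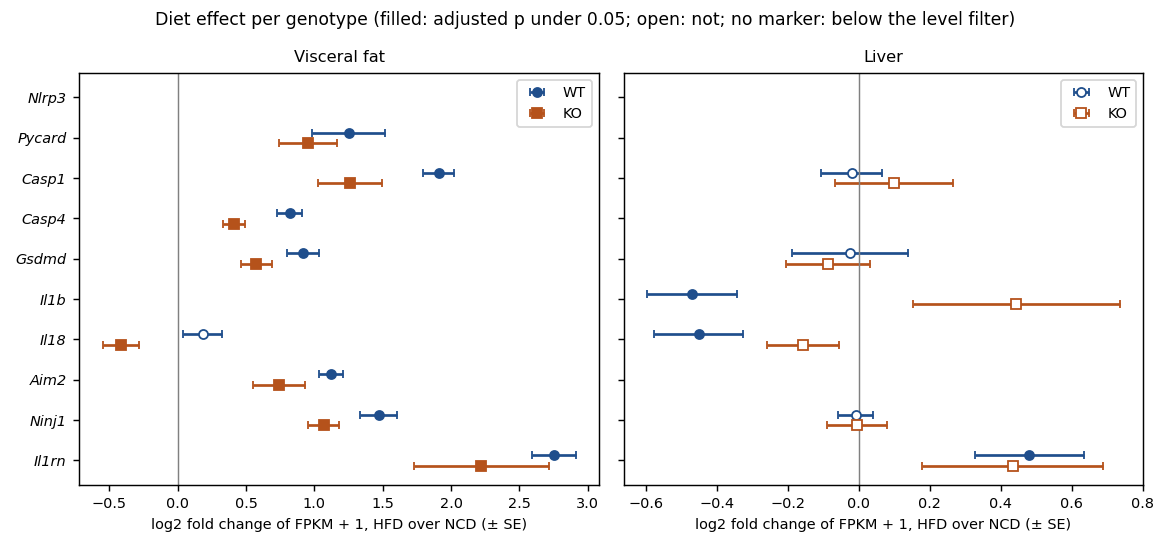
Log2 fold change of FPKM + 1 for HFD over NCD in visWAT (left) and liver (right), WT as circles and KO as squares, with whiskers of 1 SE; the horizontal scales differ. In visWAT 7 genes are filled to the right of 0 in both genotypes and Il18 to the left in KO; in liver only Il1b, Il18 and Il1rn in WT are filled.

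In KO visWAT, 7 of the 8 genes tested rose on HFD and 1 fell, against 23.3% and 20.3% of all 14026 genes tested. Il1rn passed the filter only through its HFD values here too, so this count and the adjusted p of Il1rn are descriptions. The median log2 fold change of the 8 genes was 0.85, against 0.0094 for all genes. Casp1 stood at 2.44, 2.36, 2.66 and 2.38 FPKM on NCD and at 8.80, 10.1, 10.4, 4.73 and 4.51 FPKM on HFD, a log2 fold change of 1.26 ± 0.23 (adjusted p = 0.00286). Il1rn stood at 0.0827, 0.0764, 0.292 and 0.0873 FPKM on NCD and at 5.34, 10.1, 9.47, 1.27 and 1.45 FPKM on HFD, a log2 fold change of 2.22 ± 0.49 (adjusted p = 0.00637). For both genes mice 156 and 157 were the lowest on HFD and still lay above every NCD mouse.

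The other genes that rose in KO were Ninj1, Aim2, Pycard, Gsdmd and Casp4. Ninj1 stood at 26.3, 31.3, 33.8 and 30.6 FPKM on NCD and at 71.2, 69.9, 72.7, 52.3 and 60.9 FPKM on HFD (log2 fold change 1.07 ± 0.11, adjusted p = 0.00032). Aim2 stood at 0.697, 0.595, 0.680 and 0.759 FPKM on NCD and at 1.76, 2.36, 3.16, 1.19 and 1.09 FPKM on HFD (0.74 ± 0.19, adjusted p = 0.0123). Pycard stood at 0.658, 0.625, 0.874 and 0.645 FPKM on NCD and at 2.37, 3.29, 3.70, 1.21 and 1.56 FPKM on HFD (0.95 ± 0.21, adjusted p = 0.0066). In each of these the groups were separate, as they were for 7 of the 10 genes with HFD higher (20.1% of all tested genes) and 1 with HFD lower (18.3%). Gsdmd stood at 8.38, 8.48, 9.46 and 9.03 FPKM on NCD and at 14.5, 15.1, 16.3, 12.3 and 10.7 FPKM on HFD (0.575 ± 0.11, adjusted p = 0.0035). Casp4 stood at 1.97, 1.64, 1.92 and 1.66 FPKM on NCD and at 2.56, 3.17, 3.01, 2.54 and 2.32 FPKM on HFD (0.41 ± 0.08, adjusted p = 0.0036). Both were also separate between the diets.

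Il18 was the gene that fell in KO fat. It stood at 4.02, 4.99, 5.36 and 4.18 FPKM on NCD and at 3.51, 3.72, 3.63, 3.29 and 2.11 FPKM on HFD, without overlap (log2 fold change -0.42 ± 0.13, adjusted p = 0.029). The call was lost without KO NCD mouse 179 or without mouse 197 (adjusted p up to 0.0842), with no filter on low values (adjusted p = 0.0631) and on the TPM scale (adjusted p = 0.055), and the Il18 row overlaps Tex12 and Bco2 on the opposite strand. Nlrp3 stood at 0.203, 0.128, 0.239 and 0.170 FPKM on NCD and at 0.172, 0.324, 0.608, 0.134 and 0.123 FPKM on HFD, and Il1b at 0.0960, 0.188, 0.0616 and 0.235 FPKM and at 0.207, 0.158, 0.494, 0.373 and 0.212 FPKM. Both overlapped between the diets (exact permutation test, p = 0.54 for Nlrp3 and p = 0.135 for Il1b).

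Macrophage markers moved with these genes. In WT visWAT all 9 macrophage markers that could be tested, of 10 listed, rose on HFD (21.9% of all genes), with a median log2 fold change of 2.355, and 9 of 9 rose without the mice labelled 182 and 183. In KO 7 of 9 rose (23.3% of all genes), with a median of 1.37. Their summed level was 181 to 276 FPKM in WT and 240 to 414 FPKM in KO on NCD, and 1542 to 2152 FPKM in WT and 610 to 1979 FPKM in KO on HFD, and none of the 10 was at 0. Neutrophil markers summed to 1.13 to 3.996 FPKM on NCD and 7.31 to 14.9 FPKM on HFD over both genotypes, with Ly6g at 0 throughout WT HFD and KO NCD fat. In KO HFD fat most of this sum was S100a8 and Csf3r, with means of 7.88 and 1.64 FPKM. Each of the other neutrophil markers had a mean of 0.41 FPKM or less there. Of the 7 adipocyte markers, 4 fell and 1 rose on HFD in WT, where 15.8% of all genes fell and 21.9% rose, and 5 fell and 1 rose without the mice labelled 182 and 183. The summed level of these 7 was 9016 to 20300.2 FPKM in WT and 15642 to 19684 FPKM in KO on NCD. On HFD it was 4534 to 5754 FPKM in WT and 5124 to 11241.5 FPKM in KO. In bulk tissue, more cells of a type and more RNA per cell cannot be told apart, and the part of cell composition in these differences was not tested.

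**Figure D3:**
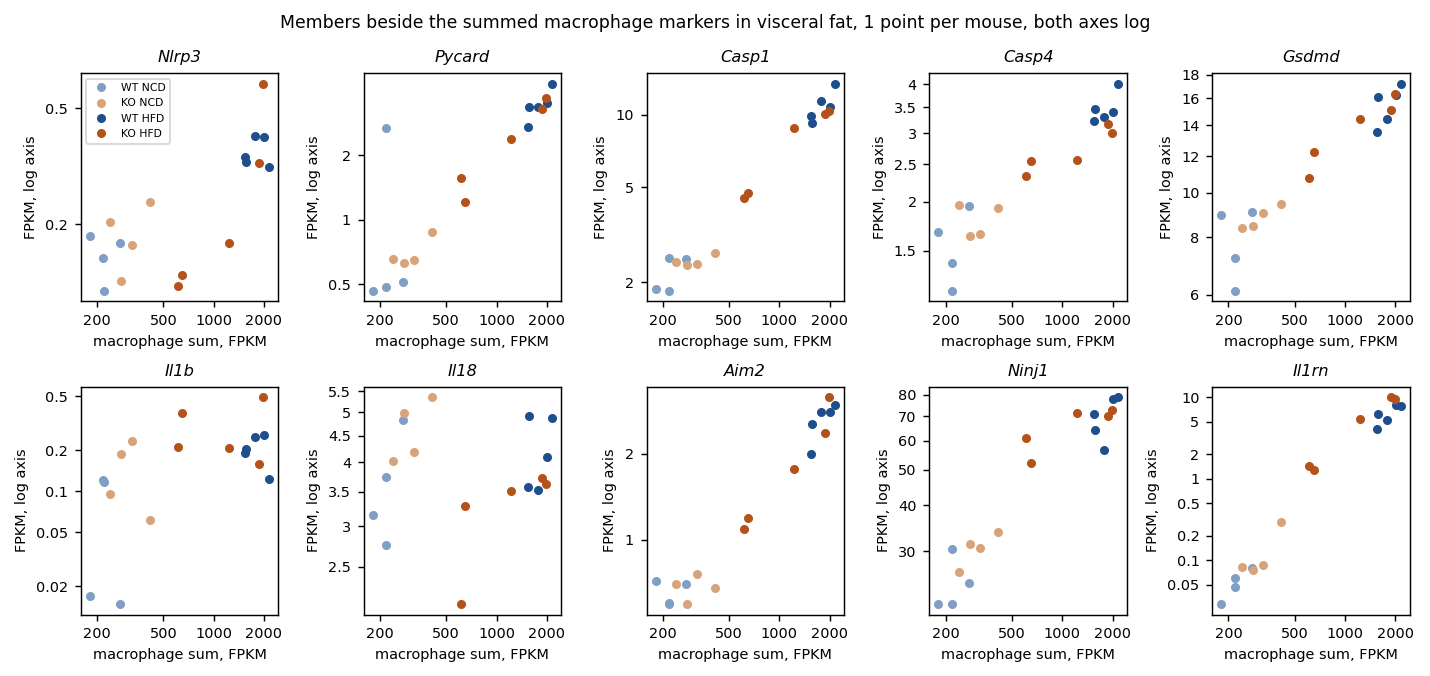
Level of each gene (FPKM) against the summed level of 10 macrophage markers (FPKM) in the 18 visWAT libraries, both axes logarithmic, 1 point per mouse and 1 colour per group. KO HFD mice 156 and 157, at 648 and 610 FPKM of macrophage markers, lie between the NCD and the other HFD mice for Casp1, Gsdmd, Aim2 and Il1rn; Il1b and Il18 are more scattered.

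The same 2 mice of the KO HFD group, 156 and 157, had the lowest macrophage sums (648 and 610 FPKM, against 1228, 1869 and 1979 FPKM) and were the 2 lowest for 9 of the 10 genes, all but Il1b. Over the 10 HFD libraries, the genes whose level was most like that of Casp1 were Clec4d, Trim47 and Aig1 (Pearson r = 0.989, 0.986 and 0.985 among 11935 genes), and for Il1rn they were Tnip3, Nfkbid and Map4k1 (0.986, 0.982 and 0.979). For Gsdmd they were Aph1c, Ptpn18 and Stard3 (0.986, 0.980 and 0.980). For the low genes they were Dnajc5, Akap10 and Ccdc34 with Nlrp3 (0.956, 0.946 and 0.944) and Adck2, Ccdc84 and Kyat1 with Il1b (0.869, 0.840 and 0.836). These correlations describe 10 libraries of both genotypes, mice 156 and 157 among them.

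The genotype comparison on HFD addressed whether loss of adipocyte Mlkl goes with a difference in these genes. None of the 8 genes tested in visWAT passed the threshold, against 0.0215% of all 13963 genes tested, and edgeR (0.0215% of all genes) and DESeq2 (1.15%) called none either. At an unadjusted p under 0.05 there were 3 of the 8, Casp1, Casp4 and Il18, and 3003 of all 13963 genes. All 8 fitted log2 fold changes of KO over WT were negative, from -0.52 to -0.09, with a median of -0.325 against -0.00065 for all genes. Casp4 was the gene whose groups did not overlap, with 2.32 to 3.17 FPKM in KO and 3.216 to 4.02 FPKM in WT (log2 fold change -0.27 ± 0.07, exact permutation test, p = 0.00794, adjusted p = 0.22 in limma). All KO mice lay below all WT mice in 1.59% of all tested genes. For Casp1 the difference was -0.52 ± 0.22 (adjusted p = 0.22), with mice 152 and 153 inside the WT range, mouse 151 just under it and mice 156 and 157 at 4.73 and 4.51 FPKM. For Il1rn the KO mice spanned the whole WT range and beyond on both sides (1.27 to 10.1 against 4.07 to 7.91 FPKM, adjusted p = 0.57). All 9 macrophage markers tested were lower in fitted fold change as well (median -0.69, none called), and their part in these values was not tested.

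On NCD, none of the 7 genes tested differed between genotypes in visWAT (limma, edgeR and DESeq2), where limma and edgeR called 0% and DESeq2 0.0569% of 14063 genes. Ninj1 alone had an unadjusted p under 0.05, with 30.5 ± 3.14 FPKM in KO and 24.6 ± 4.22 FPKM in WT (SD, n = 4, exact permutation test, p = 0.0571). Of all 14063 genes, 528 had an unadjusted p under 0.05 in limma. Without the mice labelled 182 and 183, the fitted differences of Casp4, Gsdmd and Aim2 changed sign to -0.0069, -0.026 and -0.022 and that of Pycard to 0.19.

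The difference between genotypes in the diet effect was tested as an interaction over all 18 visWAT libraries. None of the 8 genes was called, as was none of 14136 genes (0%). All 8 estimates were negative, meaning a lower fold change on HFD in KO than in WT, with a median of -0.40 against -0.01 for all genes. For Il18 this was not a smaller rise, since it fell in KO (-0.42) and was not called in WT (0.18). The estimates with an unadjusted p under 0.05 were Casp4 (-0.41 ± 0.12), Il18 (-0.60 ± 0.20), Casp1 (-0.65 ± 0.27) and Ninj1 (-0.40 ± 0.18), with adjusted p between 0.325 and 0.37. Of all 14136 genes, 1867 had an unadjusted p under 0.05. Without the mice labelled 182 and 183, Casp4 was at -0.26, Il18 at -0.49, Casp1 at -0.64 and Ninj1 at -0.47. edgeR (0% of all genes) and DESeq2 (0.134%) called none of the 8, and there the estimate of Pycard was 0.10 and 0.09.

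In WT liver 6 of the 10 genes reached the filter, of which 1 rose and 2 fell, against 13.2% and 12.1% of 13330 genes tested. These 3 calls depended on single libraries. With 1 mouse left out, 0 to 3 calls were made, with 0 without WT NCD mouse 180 or 183 and 1 without WT HFD mouse 154, 161 or 162. Il1rn was the 1 call left without both mice labelled 182 and 183, and its NCD mean of 0.489 FPKM lay under the filter, so that it passed through its HFD values. Casp4, Pycard, Aim2 and Nlrp3 were below the filter, with group means between 0.123 and 0.380 FPKM over the 4 liver groups.

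**Figure D4:**
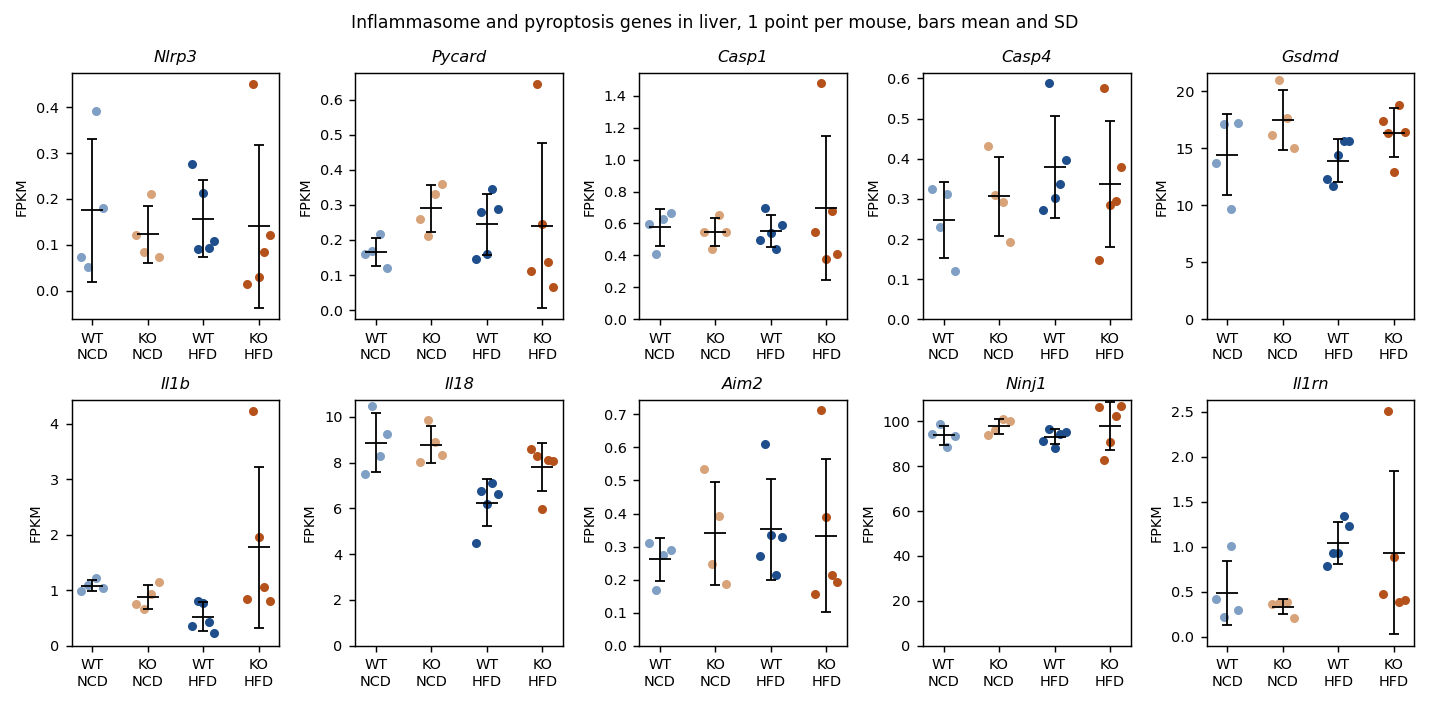
Level of each gene in liver in FPKM (linear axis, its own scale per panel) for the 4 groups of genotype and diet, with 1 point per mouse, the mean and whiskers of 1 SD (n = 4 on NCD and 5 on HFD). Ninj1 and Gsdmd are at similar levels in all groups, and 1 KO HFD mouse, 152, is the highest of its group for 7 of the 10 genes.

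The cytokine genes fell in WT liver on HFD. Il1b stood at 0.982, 1.09, 1.21 and 1.04 FPKM on NCD and at 0.352, 0.811, 0.777, 0.427 and 0.229 FPKM on HFD, without overlap, from 31 to 48 and from 8 to 29 reads per library (log2 fold change -0.47 ± 0.13, adjusted p = 0.024). Il18 stood at 7.50, 10.5, 8.28 and 9.24 FPKM on NCD and at 4.50, 6.78, 6.19, 7.12 and 6.62 FPKM on HFD, also without overlap (-0.45 ± 0.13, adjusted p = 0.028). Separate groups with this direction were found in 11.6% of all tested genes. Il1rn stood at 0.426, 0.222, 1.01 and 0.295 FPKM on NCD and at 0.788, 0.935, 0.932, 1.35 and 1.23 FPKM on HFD. The high NCD value is that of the library labelled 182, which also had the highest macrophage sum. The log2 fold change of Il1rn was 0.48 ± 0.15 (adjusted p = 0.047), and 0.63 without mouse 182 (adjusted p = 0.0033), but its call was lost when any 1 of the other 8 mice was left out (adjusted p up to 0.119).

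The lytic genes were the most abundant in liver, and neither was called between the diets. Ninj1 stood at 94.3, 98.8, 88.5 and 93.4 FPKM in WT on NCD and at 91.3, 96.5, 88.2, 94.3 and 95.4 FPKM on HFD (log2 fold change -0.0091 ± 0.05, adjusted p = 0.92). Gsdmd stood at 13.7, 17.2, 9.70 and 17.2 FPKM on NCD and at 12.3, 11.7, 14.4, 15.7 and 15.6 FPKM on HFD (-0.026 ± 0.16, adjusted p = 0.93). Casp1 was at 0.576 ± 0.115 FPKM on NCD (SD, n = 4) and 0.553 ± 0.0979 FPKM on HFD (n = 5, adjusted p = 0.89 in limma). The groups of all 3 genes overlapped.

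In KO liver none of the 6 genes tested passed the threshold between the diets (limma and edgeR), against 22.2% (limma) and 23.7% (edgeR) of 13149 genes tested. None of the 6 had an unadjusted p under 0.05 in limma, against 4678 of all genes. DESeq2, which called 26.8%, called Il1rn (adjusted p = 0.022). The NCD mean of Il1rn, 0.337 FPKM, lay under the filter, so it passed only through its HFD values. Il1rn stood at 0.369, 0.374, 0.392 and 0.215 FPKM on NCD and at 0.475, 2.51, 0.886, 0.384 and 0.409 FPKM on HFD. Il1b stood at 0.752, 0.663, 0.928 and 1.15 FPKM on NCD and at 0.834, 4.23, 1.95, 1.05 and 0.801 FPKM on HFD. In both genes mouse 152 was the highest. Il18 stood at 8.02 to 9.87 FPKM on NCD and 5.96 to 8.60 FPKM on HFD (log2 fold change -0.16 ± 0.10, adjusted p = 0.30).

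Between genotypes on HFD, none of the 6 genes was called in liver by limma or edgeR, against 0.197% and 0.204% of 13215 genes tested. In limma 2 of the 6 had an unadjusted p under 0.05, and 1664 of all genes. Il1b was 1.78 ± 1.45 FPKM in KO and 0.519 ± 0.261 FPKM in WT (SD, n = 5), 3.42-fold in the means, and mouse 152 at 4.23 FPKM carried much of this (log2 fold change 0.76 ± 0.28, exact permutation test, p = 0.0159, limma adjusted p = 0.31). Without mouse 152 the log2 fold change was 0.49 (adjusted p = 0.19). DESeq2 on the recovered reads called Il1b (adjusted p = 0.034) and 1.98% of all genes. Il18 was 7.81 ± 1.05 FPKM in KO and 6.24 ± 1.03 FPKM in WT (log2 fold change 0.29 ± 0.12, exact permutation test, p = 0.0476, limma adjusted p = 0.37). Mouse 152 also had the highest sums of Kupffer cell markers (147 FPKM, against 38.7 to 66.6 FPKM in the other KO HFD mice) and neutrophil markers (7.06 FPKM, against 0.446 to 1.30 FPKM), and their part in its values was not tested. On NCD none of the 5 genes tested in liver was called or had an unadjusted p under 0.05 (limma, which called 0.00758% of 13193 genes tested, 574 of which had an unadjusted p under 0.05). There edgeR (0.00758%) and DESeq2 (0.159%) called none. In the interaction of genotype and diet, none of 6 genes was called by the 3 tools (limma called 0.0151%, edgeR 0.00755% and DESeq2 0.476% of 13248 genes). Il1b alone of the 6 had an unadjusted p under 0.05 in limma (0.0155, estimate 0.91 ± 0.34, and 0.65 without mouse 152), as did 811 of all genes.

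Levels were compared between the tissues in WT mice. On NCD 2 of the 7 genes tested were higher in visWAT and 4 lower, against 31.5% and 34% of 14544 genes tested. Without the mice labelled 182 and 183, 2 were higher and 4 lower of 6 tested. Casp4 and Pycard passed the filter only through fat and Il1b only through liver, so these counts describe the genes and test nothing. Casp1 (2.18 ± 0.374 against 0.576 ± 0.115 FPKM) and Casp4 (1.55 ± 0.331 against 0.247 ± 0.0939 FPKM) were higher in fat. Ninj1 (24.6 ± 4.22 against 93.8 ± 4.25 FPKM), Il18 (3.62 ± 0.901 against 8.87 ± 1.28 FPKM), Gsdmd (7.83 ± 1.42 against 14.5 ± 3.58 FPKM) and Il1b (0.0669 ± 0.0590 against 1.08 ± 0.0996 FPKM) were lower in fat. On HFD 5 of 8 were higher in visWAT and 2 lower, against 41.6% and 43% of 14666 genes tested. Pycard, Casp4 and Aim2 passed only through fat, so this count is a description too. Casp1 was then 19.8-fold, Pycard 14.2-fold, Casp4 9.15-fold, Aim2 7.44-fold and Il1rn 5.97-fold higher in fat. Il1rn was thus on opposite sides on the 2 diets. Its NCD level of 0.0544 ± 0.0220 FPKM in fat lay below the 0.489 ± 0.358 FPKM of liver, without overlap. An exact permutation test gave p = 0.0286, the smallest that 4 against 4 libraries can give. This test did not use the pairing, since both tissues came from the same 4 mice.

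The direction of some tissue differences depends on the scaling. When values were rescaled to the same total per library (TPM), the median of all genes shifted by 0.52 on NCD and 0.95 on HFD toward fat. On that scale Il18 (0.50, adjusted p = 0.00342) and Ninj1 (0.67, adjusted p = 1.2e-05) were higher in fat on HFD, where on the FPKM scale they were lower (-0.47 and -0.42), and Gsdmd (-0.20, adjusted p = 0.63) and Il18 (-0.61, adjusted p = 0.11) were no longer called on NCD. For the diet effect in WT visWAT the same rescaling shifted the median of all genes by 0.42, with 3805 genes called higher and 227 lower, against 3108 and 2239 on the FPKM scale. Log2 fold changes of the 7 genes that rose were 1.44 to 4.51 on the TPM scale and each exceeded this shift. The summed FPKM was 564718 in WT NCD library 183, the one with seminal vesicle markers, and at most 309820 in the other visWAT libraries. The part of this library in the shift was not tested. In KO visWAT the median shifted by 0.0008.

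Ordered by mean level over the 8 groups, Casp1, Casp4, Aim2, Pycard, Nlrp3 and Il1rn were highest in WT HFD fat, followed by KO HFD fat, with overlapping mice in each case but Casp4. For Casp1 and Casp4 all fat groups lay above all liver groups without overlap. Ninj1 was highest in the 4 liver groups (93.1 to 97.8 FPKM), which overlapped each other and none of the fat groups. Il18 was also highest in liver, from 8.87 FPKM in WT NCD to 6.24 FPKM in WT HFD, and lowest in KO HFD fat at 3.25 FPKM, with overlap between all neighbours. Il1b had its highest mean in KO HFD liver (1.78 FPKM) and its lowest in WT NCD fat (0.0669 FPKM). Gsdmd differed least over the groups, from 17.5 FPKM in KO NCD liver to 7.83 FPKM in WT NCD fat.

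The difference in diet effect between visWAT and liver was tested as an interaction in WT mice. All 8 genes tested were called with a higher fold change on HFD in fat than in liver, and 7 without the mice labelled 182 and 183. Of 14746 genes, 21.8% were called in this direction and 40% in either. The median was 1.09 against -0.0027 for all genes. For Il18 the fold change was 0.18 in fat, where it was not called, and -0.45 in liver, where it fell. The estimates ran from 0.63 ± 0.20 for Il18 (adjusted p = 0.0171) to 2.27 ± 0.23 for Il1rn (adjusted p = 9.2e-07), with Casp1 at 1.93 ± 0.14 and Ninj1 at 1.48 ± 0.15. Pycard, Casp4 and Aim2 passed the filter only through fat and Il1rn only through its HFD values, so the count and the p-values of these genes are descriptions. The call of Il18 was lost without the mice labelled 182 and 183 (adjusted p = 0.102) and without WT NCD mouse 180 (adjusted p = 0.0768), and that of Casp4 with a pseudocount of 0.1. edgeR, which called 35.3% of all genes, did not call Pycard (adjusted p = 0.22) or Casp4 (adjusted p = 0.29), and nor did DESeq2, which called 38.6% (adjusted p = 0.17 and 0.22). Fat and liver RNA were extracted with different reagents, and this cannot be told apart from the tissue.

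Other genes of the pathway were counted from lists (limma, adjusted p under 0.05). Of 22 other inflammasome sensors and activators, 17 could be tested in WT visWAT, and 11 rose and none fell on HFD, against 21.9% and 15.8% of all genes, with a median log2 fold change of 0.46 against -0.0061 for all genes. Without the mice labelled 182 and 183 the count was also 11. They included Naip2, a receptor for bacterial secretion proteins (0.651 to 3.53 FPKM in the means, log2 fold change 1.46), and P2rx7, the ATP-gated channel upstream of NLRP3 (1.62 to 6.07 FPKM, 1.43). Naip5, a flagellin receptor (1.05), Panx1, an ATP-release channel (0.90), Sting1, an adaptor of DNA sensing (0.73), and Tlr4, the lipopolysaccharide receptor (0.72), rose too. Some genes of this list passed the filter only through their HFD values, Panx1 in WT among them (0.431 FPKM on NCD). The counts of this list in fat are therefore descriptions. The Naip genes are near-identical copies, so their reads may be split between them. In KO 5 of 16 rose and 1 fell, against 23.3% and 20.3% of all genes, with a median of 0.24 against 0.0094, and with Naip2 at 0.87, P2rx7 at 0.82, Panx1 at 0.64 and Sting1 at 0.58. Of the 12 other gasdermin, caspase and pore repair genes, 1 of 7 tested rose in WT (Casp8, 0.48, and 4 of 7 without the mice labelled 182 and 183) and 5 of 7 in KO (21.9% and 23.3% of all genes), among them Chmp4b (0.42), a subunit of the complex that mends membranes, and Gsdme (0.35), another gasdermin. Gsdma, Gsdma2, Gsdma3, Gsdmc and Ninj2 were below the filter. In liver 1 of 12 sensors and activators rose in WT (2 without the mice labelled 182 and 183) and 2 in KO, against 13.2% and 11.9% of all genes, Gbp3 in both (0.44 and 0.67).

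Of 13 other IL-1 family ligands, receptors and signaling genes, 8 were tested in WT visWAT, of which 4 rose and 1 fell on HFD, with and without the mice labelled 182 and 183, against 21.9% and 15.8% of all genes. Their median log2 fold change was 0.20 against -0.0061 for all genes. Il33, an alarmin (0.77), its receptor gene Il1rl1 (0.51), and the kinases Irak4 (0.69) and Irak3 (0.65), the latter an inhibitor of this signaling, rose, and Irak1 fell by 0.29 and was at 0.17 on the TPM scale. In KO Irak3 rose (0.31), and the receptor gene Il1r1 (-0.38) and Il18bp, the IL-18 decoy (-0.26), fell, 1 and 2 of 8 tested against 23.3% and 20.3% of all genes. In liver, none of 8 was called in WT by limma (13.2% of all genes rose and 12.1% fell), and in KO Il1rap rose (0.31) and Sigirr fell (-0.22), 1 of 8 each against 11.9% and 10.3%.

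The necroptosis genes gave the other route. In WT visWAT 9 of 15 rose on HFD and none fell, against 21.9% and 15.8% of all genes, with a median log2 fold change of 0.37 against -0.0061 for all genes. Without the mice labelled 182 and 183, 8 rose and 2 fell, with a median of 0.26. In KO 8 rose and 3 fell, against 23.3% and 20.3% of all genes, with a median of 0.17 against 0.0094. Ripk3, the kinase that activates MLKL, rose from 2.15 to 4.89 FPKM in WT (0.90 ± 0.08, adjusted p = 3.6e-05) and from 2.34 to 4.94 FPKM in KO (0.82 ± 0.19, adjusted p = 0.0069). Zbp1, a nucleic acid sensor of both routes, rose by 0.56 in WT and 0.33 in KO. Ripk1 rose by 0.39 in WT and 0.17 in KO (adjusted p = 0.046). Tnf, the ligand of the death receptor, rose by 0.77 in WT and 0.82 in KO. Its NCD means were 0.319 FPKM in WT and 0.207 FPKM in KO, so it passed the filter only through its HFD values. The counts of this list in fat are therefore descriptions. Mlkl was not called between diets in WT (3.99 to 5.29 FPKM, 0.37 ± 0.17, adjusted p = 0.12, with the library labelled 182) or KO (adjusted p = 0.082). Between genotypes on HFD Mlkl was the necroptosis gene that was called (-0.83 ± 0.07, adjusted p = 0.0016), while Ripk3 (-0.015, adjusted p = 0.95), Ripk1 (-0.16, adjusted p = 0.22) and Zbp1 (-0.34, adjusted p = 0.22) were not. In liver Ripk3 was below the filter (0.327 to 0.480 FPKM in the means). Of the 13 genes tested there, 2 rose and 1 fell on HFD in WT (13.2% and 12.1% of all genes, and 1 and 1 without the mice labelled 182 and 183). In KO 4 rose and 1 fell (11.9% and 10.3%), and Ripk1 was among those that rose (0.32, adjusted p = 0.0107).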

How the data were processed

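RNA-seq was measured in 36 libraries, visWAT and liver of 18 mice. The authors deposited FPKM values for all genes, and raw gene counts for the genes of their own genotype comparisons. Reads were counted with featureCounts 1.5.0-p3 on mm39 according to the submitters' processing notes. Whether strand was used, and how reads with several matches were handled, is not given in the sources used here. The deposited FPKM carry a scaling between libraries, and whole reads were recovered from them with the gene length and the deposited counts, to within 0.01 reads for 100.0% of values. Another 72 per-sample columns, the deposited fold changes and p-values, and the pathway tables were not used. The 10 genes and all gene lists were chosen with earlier results of these data known.

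Genes with a mean of at least 0.5 FPKM over the mice compared were tested on log2(FPKM + 1) with limma 3.58.1 (trend, Benjamini-Hochberg over all genes tested, threshold 0.05) in R 4.3.3. Single genes were also tested by exact permutation over mice, two-sided and unadjusted, with 80 tests in the 8 comparisons within a tissue. Permutation tests between the tissues are not among the 80 and did not use the pairing by mouse. Alternatives were edgeR 4.0.16 (quasi-likelihood test, TMM) and DESeq2 1.42.0 on the recovered reads, a pseudocount of 0.1, no filter, a mean of at least 1 FPKM, TPM, all 4 groups of a tissue in 1 fit, the mouse as a block between tissues, each mouse left out, and WT NCD mice 182 and 183 left out together. For the lists of other genes, the counts without these 2 mice were added after seeing the data. The fits were checked on simulated data. All 10 genes were named, and from each other list at most the 6 largest changes past the threshold with a mean of at least 1 FPKM in 1 group, plus Mlkl, Ripk1, Ripk3 and Zbp1. One gene of these lists is not reported here by name. Figures were drawn with matplotlib 3.10.9.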

Additional observations from a re-analysis of the deposited data

Results flagged for a closer look

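Of the 80 groups of mice and genes, 9 held a mouse far from the others of its group by Dixon's gap test at the 95% level, where chance flags about 1 in 20 groups. In visWAT these were Pycard in WT NCD mouse 183 (2.67 FPKM), Pycard and Il1rn in KO NCD mouse 197 (0.874 and 0.292 FPKM) and Il18 in KO HFD mouse 157 (2.11 FPKM). In liver they were Casp1, Il1rn and Nlrp3 in KO HFD mouse 152 (1.48, 2.51 and 0.449 FPKM), Il18 in KO HFD mouse 153 (5.96 FPKM) and Il1rn in KO NCD mouse 199 (0.215 FPKM).

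The diet effect in WT mice differed between visWAT and liver by the interaction test for all 8 genes tested. Of 14746 genes, 21.8% were called with a higher fold change in fat and 40% in either direction. Pycard, Casp4 and Aim2 passed the filter only through fat and Il1rn only through its HFD values, so this count is a description. The calls of Pycard, Casp4 and Il18 were lost under some alternatives. The difference on the log2 scale, visWAT minus liver, was 2.27 for Il1rn, 1.93 for Casp1, 1.48 for Ninj1, 1.16 for Pycard, 1.03 for Aim2, 0.94 for Gsdmd, 0.67 for Casp4 and 0.63 for Il18.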

How the results depend on the processing

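The count of genes called for diet in WT liver, 3, was 0 with no filter, 1 with a mean of at least 1 FPKM, 1 with all 4 groups in the fit, 1 without WT NCD mice 182 and 183, and 0 to 3 with 1 mouse left out. Over the alternatives 9.85% to 29.3% of all genes were called for this comparison. DESeq2 called 1 gene for diet in KO liver and 1 for genotype on HFD in liver, where limma called 0. Of all genes, DESeq2 called 26.8% and 1.98% in these 2 comparisons. With the mouse as a block to use the pairing of the tissues, 6, 7 and 8 genes were called for tissue on NCD, tissue on HFD and tissue by diet, as without it, and no call changed. With the block, 4327 of all 14544 genes were called higher in fat and 4662 lower on NCD. On HFD these were 6050 and 6254 of 14666 genes, and for tissue by diet 2982 and 2383 of 14746. The deviations of fat and liver from the same mouse correlated at -0.0783 to 0.0867.

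Of 658 alternatives for single genes that left out no single mouse, 615 kept direction and side of the threshold and 18 changed sign. Of these 18, the tissue differences of Il18 (0.50) and Ninj1 (0.67) on HFD in TPM were called in the opposite direction. The others were not called. They were, for genotype on NCD in visWAT, Pycard in TPM (0.18), and without mice 182 and 183 Pycard (0.19), Casp4 (-0.0069), Gsdmd (-0.026) and Aim2 (-0.022). For diet by genotype they were Pycard in visWAT with edgeR (0.10) and DESeq2 (0.088), and in liver Il1rn with edgeR (0.40) and DESeq2 (0.39), Ninj1 in TPM (-0.043) and Gsdmd without mice 182 and 183 (0.051). In liver they were also Gsdmd (0.0026) and Ninj1 (0.020) for diet in WT in TPM, Casp1 (0.048) for diet in WT and (0.043) for genotype on NCD without mice 182 and 183, and Ninj1 (-0.0045) for genotype on HFD in TPM. With 1 mouse left out, sign changes occurred in uncalled results only. In liver these were Casp1 for diet in WT (-0.073 to 0.0078), diet in KO (-0.045 to 0.17), genotype on HFD (-0.050 to 0.16), genotype on NCD (-0.078 to 0.0093) and diet by genotype (-0.026 to 0.19). They were also Gsdmd for diet in WT (-0.19 to 0.065) and diet by genotype (-0.15 to 0.10), Ninj1 for diet in WT (-0.036 to 0.016), diet in KO (-0.040 to 0.051) and diet by genotype (-0.031 to 0.061), Il18 for genotype on NCD (-0.076 to 0.068) and Il1rn for diet by genotype (-0.29 to 0.048). In visWAT it was Pycard for genotype on NCD (-0.25 to 0.19). The causes were not tested. Nlrp3 and Il1b in visWAT, and Nlrp3, Pycard, Casp4 and Aim2 in liver, were below the filter, so differences there are limited by depth.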
